A study of Mus musculus with 16 samples.

Results

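The genes Cd47, Sirpa, Cd24a, Cd276, Vsir, Pvr and Nectin2 encode surface proteins through which cells restrain phagocytes, T cells and NK cells. They were taken by symbol, 7 of the 19715 genes in the count matrix, and are described over the cell type names and libraries of mouse neuroblastoma grafts. NB9464D, a mouse neuroblastoma cell line, had been placed under the skin of male C57BL/6 mice that were 8 weeks old and either lacked the receptor CD200R (KO) or were wild type (WT). The labels call the first genotype CD200R-/- for the samples and CD200-/- in the growth protocol. On day 28 the tumors had been digested with collagenase and either CD45+ sorted leukocytes or all tumor cells had been loaded for 10x Genomics 3' sequencing. There were thus 4 groups: KO sorted, WT sorted, KO tumor and WT tumor. The labels list 4 samples per group, but each cell carries only the name of 1 library per group.

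CD47 is a broadly expressed membrane protein that binds SIRPα on macrophages, neutrophils and dendritic cells. SIRPα then recruits the phosphatases SHP-1 (Ptpn6) and SHP-2 (Ptpn11), and uptake of the CD47-bearing cell is restrained. CD24 is a small glycosylated protein that binds inhibitory Siglec receptors, Siglec-G in the mouse. CD276 (B7-H3) is a B7 family protein found on many solid tumors, neuroblastoma among them, and VISTA (Vsir) is a related checkpoint protein of myeloid cells and T cells for which PSGL-1 (Selplg) is a reported binding partner. PVR (CD155) and nectin-2 (CD112) are adhesion proteins that bind the activating receptor CD226 and the inhibitory receptor TIGIT on T and NK cells, and PVR also binds CD96.

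The KO sorted library held 4305 cells, the WT sorted library 5219, the KO tumor library 5897 and the WT tumor library 4955. Their median depth was 3127, 4665, 16276 and 19850 unique molecular identifiers (UMIs, counted transcripts) per cell in the same order. Levels are given in CPM, the share a gene took of all UMIs of a cell type name and library on the usual CPM scale, with 95% Poisson intervals in parentheses where given, which cover counting error only. With 1 library per group there was no replicate spread and no test could be made, so genotype cannot be told apart from animal, graft or preparation. Cd200r1, the targeted gene, had 0 UMIs in every leukocyte name of both KO libraries, against 77.8 CPM in M1 macrophages and 76.2 CPM in myeloid dendritic cells of the WT sorted library. In all, 113 cell barcodes, 307 cells, occurred in more than 1 library.

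Several names did not match their markers. Cells named neuroblastoma were led by cell cycle genes such as Prc1, Aspm and Kif11 in the tumor libraries. Of the neuroblastoma markers, 6 were in the matrix, and nearly all of their signal there came from Hand2, a transcription factor of the sympathetic lineage, at 245 CPM in KO and 154 CPM in WT tumor cells. Sorted cells of the same name carried the pan-leukocyte gene Ptprc at 1006 CPM in the KO and 241 CPM in the WT library, against 2.80 and 0.258 CPM in the KO and WT tumor libraries. Cells named cancer stem cells were led by hemoglobin and other erythroid genes in the KO tumor, WT tumor and WT sorted libraries and by mitochondrial genes in the KO sorted library. Those named hematopoietic stem cells were led by mast and B cell genes, with Hbb-bs first in KO, when sorted, and by Lars2, Gm26917, Gm42418 and mitochondrial genes, with hemoglobin genes in WT, in the tumor libraries. M2 macrophages of the WT tumor library were low in macrophage markers, as given below. Sorted regulatory T cells carried Foxp3 in both genotypes, at 364 CPM in KO and 91.4 CPM in WT cells. Those of the WT sorted library were led by Il17a, Tcrg-C1 and Cd163l1. Fibroblast-named tumor cells carried all 8 fibroblast markers, which summed to 2152 CPM in KO and 3194 CPM in WT cells. Among these Col1a2 stood apart, with 1.86 CPM in KO and 437 CPM in WT cells, while Col1a1 had 631 and 723 CPM, Col3a1 939 and 1355 CPM, and Dcn 367 and 243 CPM. "Graft" here means cells of the tumor libraries named neuroblastoma or fibroblast, since the labels do not say which of these come from the line.

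The genes lie on mm10, with the annotation of GENCODE vM21, as follows. Cd47 spans chr16:49800533-49915010 and Sirpa chr2:129592835-129632228, both on the plus strand. Cd24a spans chr10:43578284-43584265 and Vsir chr10:60346851-60372684, also on the plus strand, Vsir within the larger gene Cdh23 on the opposite strand. Cd276 spans chr9:58524298-58555437 on the minus strand. Pvr spans chr7:19903578-19921160 and Nectin2 chr7:19716644-19750483, both on the minus strand, with other genes between them. The reads of a 3' library fall mostly in the last exon of a gene, so protein isoforms cannot be told apart.

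Upstream sequences are shown for genes from both ends of the contrast between graft and leukocytes described below, Cd276 and Nectin2 with higher levels in the graft and Vsir with signal almost entirely in leukocytes. Each is the run of 250 bases before a RefSeq start, 5′ to 3′ on the gene's strand, from RefSeq on GRCm38.p6, and capitals mark the letters GGGCGG (GC box) or GAGGAA (the core of a PU.1 site), or their reverse complements CCGCCC and TTCCTC.
Cd276 (chr9:58555034-58555283, minus strand): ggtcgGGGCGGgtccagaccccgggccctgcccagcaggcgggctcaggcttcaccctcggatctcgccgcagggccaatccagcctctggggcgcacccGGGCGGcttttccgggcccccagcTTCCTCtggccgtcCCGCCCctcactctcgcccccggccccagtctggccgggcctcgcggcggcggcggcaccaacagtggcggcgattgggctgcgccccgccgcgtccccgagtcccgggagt
Nectin2 (chr7:19749574-19749823, minus strand): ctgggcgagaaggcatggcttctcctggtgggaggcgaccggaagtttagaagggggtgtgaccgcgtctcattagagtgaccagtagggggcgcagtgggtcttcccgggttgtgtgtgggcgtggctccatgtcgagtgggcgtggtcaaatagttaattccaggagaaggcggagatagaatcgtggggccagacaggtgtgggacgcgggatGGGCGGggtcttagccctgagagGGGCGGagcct
Vsir (chr10:60346601-60346850, plus strand): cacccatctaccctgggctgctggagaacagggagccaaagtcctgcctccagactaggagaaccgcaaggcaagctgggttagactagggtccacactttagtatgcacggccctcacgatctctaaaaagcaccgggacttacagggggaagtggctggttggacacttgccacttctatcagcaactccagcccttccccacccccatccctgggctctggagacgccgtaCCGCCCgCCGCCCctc
The Cd276 window held 29 CpG dinucleotides, the Nectin2 window 16 and the Vsir window 9, against a median of 6 over 32851 windows. GC box letters were in all 3 windows and in 32.7% of all windows, and the GAGGAA letters were in the Cd276 window and in 23.3% of all windows. A match describes letters only. The Cd276 and Nectin2 windows lie within the GENCODE spans given above, before RefSeq starts inside those spans. Only the Vsir window ends just outside its span. RefSeq windows matched for 4 members, Cd47 being the other, and Sirpa, Cd24a and Pvr had none in the table used.

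Cd47 was detected in every name of every library that had cells of it. Among names with at least 50 cells, the KO sorted library had its highest level in migratory dendritic cells, 786 CPM (734 to 840), followed by NK cells at 599 CPM. In the WT sorted library NK cells led with 706 CPM (673 to 740). Plasmacytoid dendritic cells, too few for that ranking, had 1188 CPM in 34 KO and 1294 CPM in 17 WT sorted cells. T cells, B cells, macrophages and neutrophils lay between, from 346 to 573 CPM in the KO and from 226 to 459 CPM in the WT sorted library. Levels were lower in tumor cells: neuroblastoma-named cells had 95.4 and 106 CPM, and fibroblast-named cells 198 and 134 CPM, in the KO and WT tumor libraries. Stem cell-named cells of the KO tumor library had 33.5 CPM, the lowest level there, with an interval that overlapped that of cancer stem cell-named cells at 40.7 CPM. Cancer stem cell-named cells were also the lowest in both sorted libraries, 44.5 CPM in KO and 69.6 CPM in WT cells. The graft as a whole had 150 CPM in the KO and 120 CPM in the WT tumor library, against 388 and 247 CPM in all leukocytes of those libraries. The levels were not below those of every leukocyte name: CD8 T cells of the KO tumor library had 185 CPM (129 to 257), which overlaps fibroblast-named cells. The share of cells with a Cd47 UMI was 85.1% in KO and 87.0% in WT graft cells, and after thinning each cell to 2000 UMIs it was 27.6% and 21.9%, against 52.5% of KO and 37.7% of WT leukocytes.

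**Figure D1:**
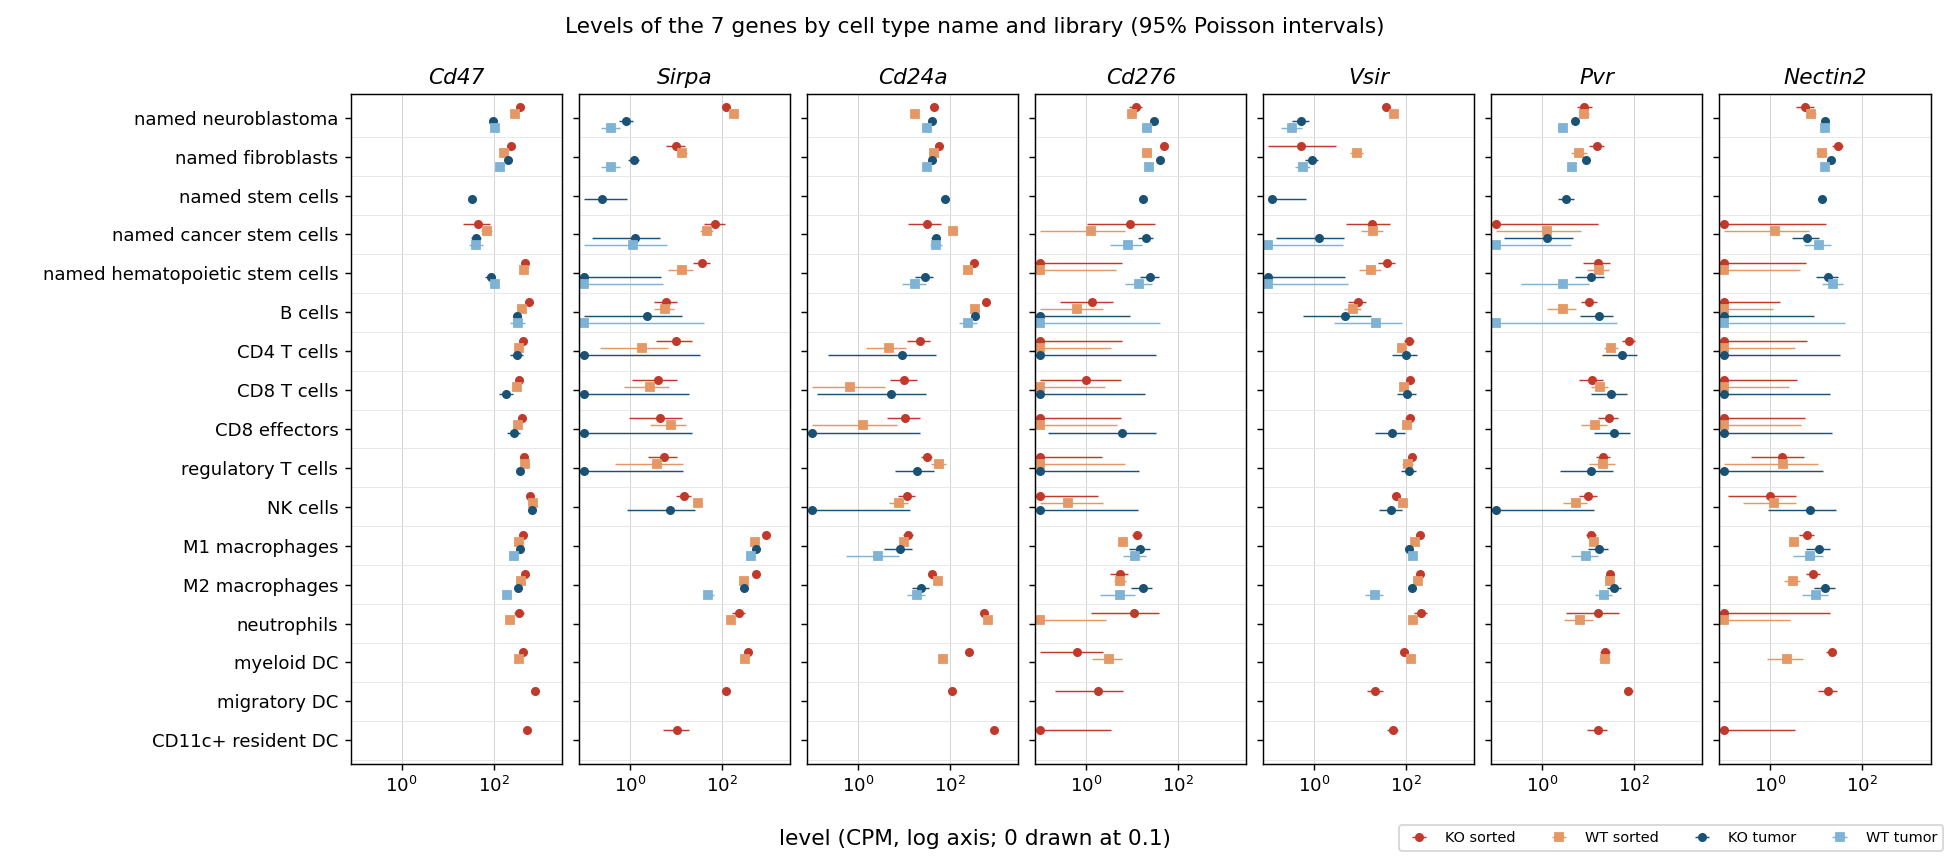
Level of each gene (CPM, log axis, 0 drawn at 0.1) by cell type name with at least 50 cells; red circles KO sorted, orange squares WT sorted, dark blue circles KO tumor, light blue squares WT tumor, with 95% Poisson intervals. Cd47 was present in every row, Sirpa and Vsir were concentrated in leukocytes, Cd24a in B cells, neutrophils and some dendritic cells, and Cd276 and Nectin2 were near 0 in lymphocytes.

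Sirpa, the receptor on the phagocyte's side, followed the myeloid names. M1 macrophages had 905 CPM in the KO sorted library, 516 in the WT sorted, 549 in the KO tumor and 424 in the WT tumor library. M2 macrophages had 538, 299, 301 and 50.4 CPM in the same libraries, and myeloid dendritic cells 359 CPM in the KO and 319 CPM in the WT sorted library. Among names with at least 50 cells, M1 macrophages stood first in all 4 libraries, with intervals apart from the next name. Neutrophils had 232 CPM in the KO and 155 CPM in the WT sorted library. Dendritic cells were uneven: those named CD11c+ resident, which carried Xcr1 (496 CPM) and Clec9a (181 CPM), markers of the cross-presenting type, had only 10.6 CPM of Sirpa in 65 KO sorted cells and 35.1 CPM in 30 WT sorted cells. T and B cells had 1.87 to 10.1 CPM in the sorted libraries, and KO and WT graft cells 1.05 and 0.396 CPM. Sirpb1a, Sirpb1b and Sirpb1c, activating relatives with similar sequence, can share reads with Sirpa: Sirpb1b was highest in neutrophils at 259 CPM in KO and 158 CPM in WT cells, and Sirpb1c in M2 macrophages at 173 and 142 CPM, so the split among these genes is uncertain.

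Cd24a had another distribution. CD11c+ resident dendritic cells had 916 CPM (859 to 977) in the KO sorted library and 570 CPM in 30 WT sorted cells. B cells had 612 CPM in the KO and 349 CPM in the WT sorted library, and neutrophils 551 and 653 CPM. Macrophages were far lower, with 12.4 CPM in KO and 9.82 CPM in WT sorted M1 cells, and CD8 T cells had 10.3 and 0.694 CPM. The dendritic cells that were low in Sirpa were thus the highest in Cd24a in the KO sorted library, and M1 macrophages, highest in Sirpa, were among the low ones. Graft cells had an even, moderate level: 41.0 and 32.0 CPM in neuroblastoma-named and 41.5 and 31.3 CPM in fibroblast-named cells of the KO and WT tumor libraries, and stem cell-named cells of the KO tumor library 78.5 CPM. Siglecg, the receptor gene for CD24, was highest in B cells among the leukocyte names, at 183 CPM in the KO and 266 CPM in the WT sorted library. The hematopoietic stem cell name, whose leading genes were of B and mast cells, had 113 CPM in KO and 267 CPM in WT sorted cells.

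Vsir was a leukocyte gene of both myeloid and T cells. Macrophages had 197 CPM in the M1 and in the M2 cells of the KO sorted library, and 154 and 181 CPM in those of the WT sorted library. Neutrophils had 205 and 143 CPM, and regulatory T cells 136 and 109 CPM, in KO and WT sorted cells. CD4 T cells, CD8 T cells and CD8 effectors had 116 to 120 CPM in the KO and 79.5 to 104 CPM in the WT sorted library. B cells stood apart at 8.94 and 7.04 CPM, and graft cells had 0.720 CPM in the KO and 0.457 CPM in the WT tumor library. Selplg, which encodes PSGL-1, was broad in leukocytes, for example 656 CPM in KO and 583 CPM in WT sorted CD8 effectors.

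Cd276 was the reverse of Vsir. Fibroblast-named cells had 49.0 and 20.7 CPM in the KO and WT sorted libraries and 41.1 and 23.2 CPM in the KO and WT tumor libraries, and neuroblastoma-named tumor cells 30.0 and 21.3 CPM. Macrophages carried a little, 12.8 CPM in KO and 6.39 CPM in WT sorted M1 cells. Lymphocytes were at or near 0. CD4 T cells, regulatory T cells and CD8 effectors had 0 UMIs in both sorted libraries, CD8 T cells 1 UMI in KO and 0 in WT cells, NK cells 0 and 1 UMI, and B cells 3 and 2 UMIs. Among KO tumor cells, 53.3% of the graft had a Cd276 UMI, against 2.18% of leukocytes, which were shallower, and in the WT tumor library 38.3% against 5.30%. After thinning, the shares were 7.52% of KO graft cells against 0.913% of leukocytes and 4.37% of WT graft cells against 1.02%.

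Nectin2 and Pvr, whose proteins share receptors, did not share a distribution. Nectin2 had 18.6 CPM in KO and 15.5 CPM in WT graft cells. B cells had 0 UMIs in all 4 libraries, which allows at most 1.34 CPM in the KO and 0.959 CPM in the WT sorted library at a floor of 3 counts, and CD4 and CD8 T cells also had 0. Endothelial cells, only 13 in each tumor library, had the highest Nectin2 level of those libraries, 195 CPM in KO and 92.6 CPM in WT cells. Pvr was low in the graft, 7.18 CPM in KO and 3.65 CPM in WT cells, and higher in migratory dendritic cells, with 74.8 CPM in 90 KO and 68.8 CPM in 46 WT sorted cells. CD4 T cells had 75.7 CPM in the KO and 31.8 CPM in the WT sorted library, from 45 and 34 UMIs, and M2 macrophages 30.2 and 30.5 CPM. Of the receptors, the activating Cd226 reached 247 CPM in KO and 90.8 CPM in WT sorted CD8 effectors, and Cd96 79.1 and 76.1 CPM in NK cells. Tigit, the inhibitory receptor, was at most 4.63 CPM in any name of the sorted libraries with at least 50 cells.

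Graft cells were set against the leukocytes of the same tumor library, 3776 against 1237 cells in the KO and 4126 against 321 cells in the WT library. A log2 ratio is given relative to that of the median gene, and a gene counts as past the threshold at 1.5-fold. Of the 7 genes, Cd276 and Nectin2 were higher in the graft in both libraries, and Cd47, Sirpa, Vsir and Pvr were lower, where in the KO library 30.4% of 14848 genes were higher and 32.1% lower, and in the WT library 28.5% and 31.1% of 14406 genes. These shares are for each library alone. The share of all genes past the threshold in the same direction in both libraries was not counted. Cd276 had 35.9 CPM in KO graft cells against 8.44 CPM in leukocytes, a log2 ratio of 1.95 (1.47 to 2.46), and 22.2 against 7.31 CPM in the WT library, a log2 ratio of 1.42 (0.77 to 2.15). Nectin2 had log2 ratios of 0.71 (0.28 to 1.18) in the KO and 0.90 (0.25 to 1.63) in the WT library. Both intervals for Nectin2 lie above 0 but reach below the threshold. The contrast is with all leukocytes pooled and does not hold for every name. M2 macrophages had 15.9 CPM (8.91 to 26.3) of Nectin2 in the KO tumor library, against 15.6 CPM in neuroblastoma-named cells. In the WT tumor library they had 9.91 CPM (4.95 to 17.7) against 15.2 CPM, but these WT cells were low in macrophage genes, as given below. For Cd276, KO tumor M2 and M1 macrophages had 17.0 and 15.2 CPM against 30.0 CPM, and WT ones 5.40 and 11.7 CPM against 21.3 CPM.

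Among the lower genes the sizes differed widely. Cd47 had log2 ratios of -1.51 in the KO and -1.23 in the WT library, and Pvr -1.83 and -2.23. All KO and WT graft cells together held 13317 and 11787 UMIs of Cd47, but only 639 and 359 UMIs of Pvr. Sirpa had -8.06 and -9.33 and Vsir -7.07 and -7.60, which left 93 and 39 UMIs of Sirpa and 64 and 45 UMIs of Vsir in all KO and WT graft cells. Cd24a had a log2 ratio of -1.39 (-1.53 to -1.24) in the KO library but -0.27 (-0.58 to 0.06) in the WT library. This difference depended on the processing. Over 9 alternatives the KO value ranged from -1.98 to -0.95 and the WT value from -1.87 to -0.08. With equal weight per cell and after thinning, Cd24a was past the threshold in the WT library as well. The leukocytes it was set against differed in makeup, with 327 B cells of 1237 in the KO and 58 of 321 in the WT library. The WT leukocytes also held the 81 M2 cells that were low in macrophage genes. These gave 1110299 of the 2600903 WT leukocyte UMIs, while KO M2 cells gave 942474 of 4265569. The 81 cells also held 11 of the 19 Nectin2 UMIs and 6 of the 19 Cd276 UMIs of the WT leukocytes. The part of this makeup in the ratios of graft over leukocytes was not tested.

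**Figure D2:**
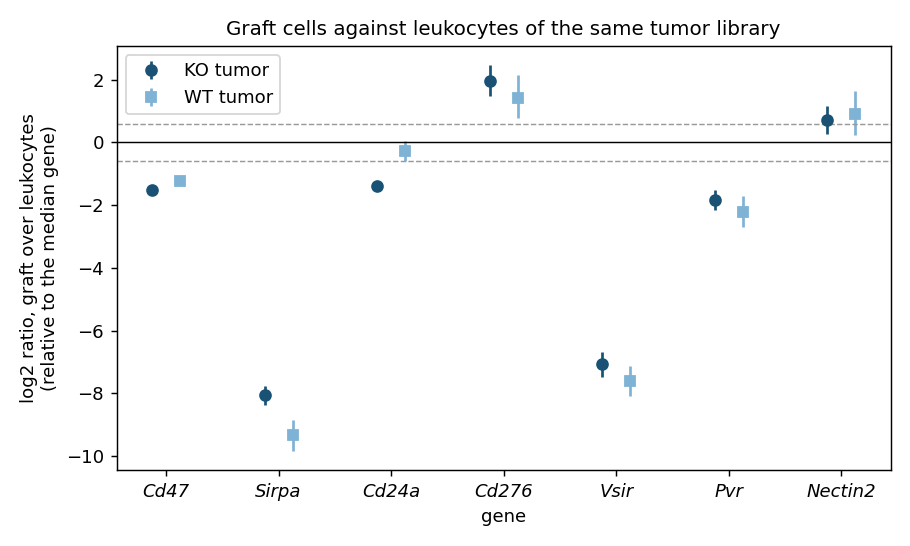
Log2 ratio of graft cells over leukocytes of the same tumor library, relative to the median gene, for each gene (vertical axis, log2), in the KO tumor library (dark circles) and the WT tumor library (light squares); bars are 95% intervals for counting error and dashed lines mark 1.5-fold. Cd276 and Nectin2 lie above 0 in both libraries and Sirpa and Vsir lie below -7.

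The genotypes were then compared within each name that had at least 50 cells in both libraries, for genes with at least 20 UMIs over both, relative to the median gene of that name. By total UMIs alone, the median gene was higher in KO by a log2 ratio of 0.19 to 0.57, depending on the name. In the sorted libraries 69 comparisons over 14 names could be made, and 13 were past 1.5-fold higher in KO and 15 lower. That is 18.8% and 21.7%, where 23.6% of all genes were higher and 25.5% lower by the same rule. In the tumor libraries 37 comparisons over 7 names gave 9 higher and 2 lower, 24.3% and 5.41%, where 20.4% of all genes were higher and 17.6% lower. Both sorted shares were a little below the background. Of the tumor shares, the higher one was a little above it and the lower one well under it, on 2 comparisons, and these differences were not tested. Counting intervals lay apart from 0 for 11 of the higher and 13 of the lower sorted values, and for 6 of the higher and 0 of the lower tumor values. Without 4 sorted and 3 tumor names that went against their markers or the CD45+ sort, a choice made after seeing the data, 7 were higher and 8 lower of 47 sorted comparisons, and 5 were higher and 0 lower of 22 tumor comparisons. The shares over all genes were not pooled for the remaining names alone. By name, from 17.3% to 29.5% of all genes were higher and from 17.3% to 29.8% lower in the sorted libraries. In the tumor libraries these shares ran from 16.4% to 27.1% higher and from 14.5% to 20.3% lower. The differences from these shares were not tested. UMI numbers differed widely between the members, and their part in how many comparisons were past the threshold was not tested. Cd47 had the fewest past it: none of its 7 tumor comparisons and 2 of its 14 sorted comparisons. These were in NK cells and in cancer stem cell-named cells, both lower in KO, where 27.7% and 28.3% of all genes were lower. The second, -0.83 (-1.97 to 0.15), rests on 10 UMIs in KO and 55 in WT cells and turned to 0.14 after thinning. Sorted neuroblastoma- and fibroblast-named cells, where 26.7% and 27.6% of all genes were lower, had Sirpa at log2 ratios of -0.81 and -0.83. Neither direction held in cells without a Ptprc UMI, with values of 0.10 and 2.07, and the second also turned with equal weight per cell (0.48) and after thinning (0.27).

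**Figure D3:**
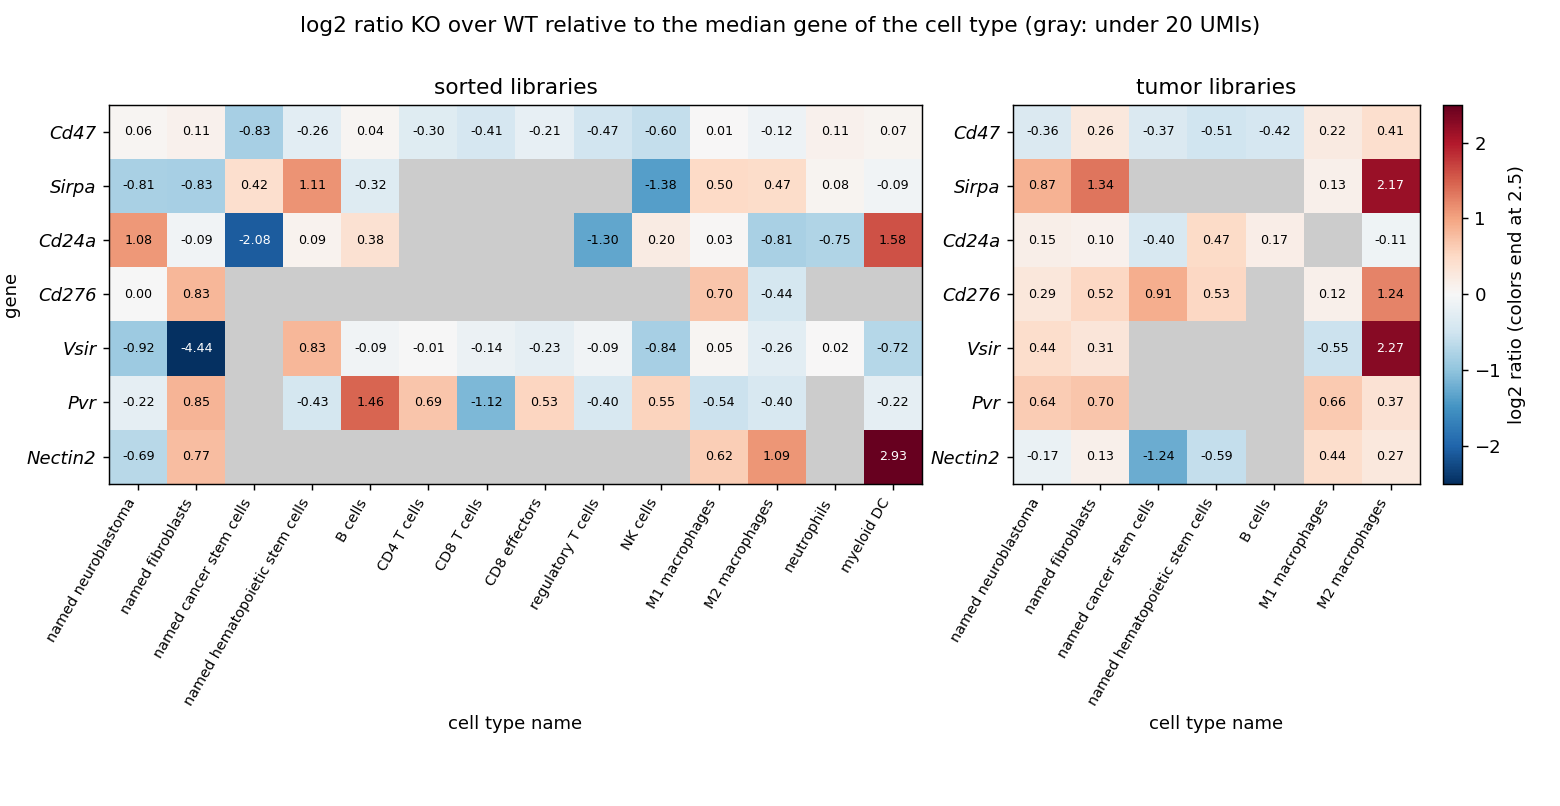
Log2 ratio KO over WT of each gene (rows) in each cell type name (columns), relative to the median gene of the name, in the sorted (left) and tumor (right) libraries; red is higher in KO, blue lower, and gray cells had under 20 UMIs. The values for Cd24a and Nectin2 in sorted myeloid dendritic cells, 1.58 and 2.93, stand beside values near 0 for Cd47 and Sirpa in the same cells.

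Sorted myeloid dendritic cells had a higher Cd24a and Nectin2 level in KO and a lower Vsir level. Cd24a had 788 UMIs in 176 KO and 179 UMIs in 117 WT sorted cells, 254 against 70.6 CPM, a log2 ratio of 1.58 (1.35 to 1.83), in a cell type where 17.3% of all genes were past 1.5-fold higher and 17.3% lower. With cells thinned to 2000 UMIs, 32.5% of KO and 11.8% of WT cells had a Cd24a UMI. In the tumor libraries, too small for the comparison, the level was 218 CPM in 47 KO and 89.4 CPM in 12 WT cells. Nectin2 had 67 UMIs in KO and 6 in WT sorted cells, 21.6 against 2.37 CPM, a log2 ratio of 2.93 (1.73 to 4.42). Vsir was lower, with 91.0 against 125 CPM and a log2 ratio of -0.72 (-0.96 to -0.48) that was -0.46 by total UMIs and then not past the threshold, whereas Sirpa (-0.09) and Cd47 (0.07) were close to the median gene. Markers moved in the same cells: the dendritic cell list, with all 8 genes detected in KO and 7 in WT cells, summed to 811 against 343 CPM, its member Cd209a to 653 against 270 CPM, and the list of 8 macrophage markers to 2604 against 4609 CPM. The 4 regulatory T cell markers summed to 153 CPM in KO and 9.08 CPM in WT cells. Xcr1 had 1 UMI in KO and 0 in WT cells. The part of these markers in the result was not tested.

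In sorted macrophages Sirpa was higher in KO than in WT cells, but by less than 1.5-fold relative to the median gene. In M1 cells its levels of 905 against 516 CPM gave a log2 ratio of 0.50 (0.46 to 0.55), and in M2 cells 538 against 299 CPM gave 0.47 (0.38 to 0.55). By total UMIs alone the log2 ratios were 0.81 and 0.85 and past the threshold. After thinning, 77.8% of KO and 59.7% of WT sorted M1 cells had a Sirpa UMI. Tumor M1 cells had a log2 ratio of 0.13 (-0.05 to 0.30), which does not exceed counting error. Cd47 (0.01) and Vsir (0.05) in sorted M1 cells were within counting error of the median gene. Cd276 was past the threshold in sorted M1 cells, 12.8 against 6.39 CPM, a log2 ratio of 0.70 (0.26 to 1.12), where 21.4% of all genes were higher. In sorted M2 cells its log2 ratio was -0.44 (-1.27 to 0.35), and in M1 and M2 cells pooled 0.31 (-0.07 to 0.68), neither past the threshold. Nectin2 was past it in sorted M2 cells, 8.62 against 3.10 CPM, 1.09 (0.30 to 1.90), where 19.2% were. In sorted M1 cells it was just past it, 6.32 against 3.31 CPM, 0.62 (-0.01 to 1.23). That interval reaches 0, and only 5 of 9 alternatives kept the value past the threshold. Nectin2 was also higher in sorted M1 and M2 cells pooled, from 64 UMIs in KO and 109 in WT cells, 7.29 against 3.26 CPM, a log2 ratio of 0.83 (0.36 to 1.29), and in the tumor libraries the value was 0.33 (-0.56 to 1.25).

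Tumor M2 macrophages had large ratios, Sirpa with 301 against 50.4 CPM, a log2 ratio of 2.17 (1.75 to 2.61), and Vsir with 133 against 20.7 CPM, 2.27 (1.62 to 2.98), in a name where 25.4% of all genes were higher. The 81 WT cells of this name were low in macrophage genes altogether: Csf1r had 249 CPM in KO and 39.6 CPM in WT cells, Adgre1 144 and 32.4 CPM and Ptprc 362 and 46.8 CPM, while the fibroblast list summed to 390 CPM in KO and 1397 CPM in WT cells. Among cells with a Ptprc UMI the log2 ratios were 0.30 for Sirpa and 0.32 for Vsir, below the threshold. In sorted M2 cells Cd24a was lower in KO, 41.2 against 55.7 CPM, a log2 ratio of -0.81 (-1.09 to -0.55) that was -0.43 by total UMIs, where 22.2% of all genes were lower. Neutrophil markers moved with it, summing to 113 CPM over 4 of 6 detected genes in KO and 554 CPM over 6 of 6 in WT cells, with S100a8 at 9.16 and 233 CPM. Their part in the result was not tested.

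In the graft the ligands for T and NK cell receptors were compared between hosts. Pvr was higher in KO: neuroblastoma-named cells had 212 UMIs in the KO and 142 in the WT tumor library, 5.08 against 2.82 CPM, a log2 ratio of 0.64 (0.33 to 0.96). Fibroblast-named cells had 427 and 217 UMIs, 9.04 against 4.51 CPM, a log2 ratio of 0.70 (0.46 to 0.94). In these names 16.4% and 19.3% of all genes were past 1.5-fold higher. Cd276 had log2 ratios of 0.29 and 0.52, Cd24a 0.15 and 0.10, Nectin2 -0.17 and 0.13, and Cd47 -0.36 and 0.26, in neuroblastoma- and fibroblast-named cells, none of them past the threshold. Sirpa was past it at 0.87 (35 against 20 UMIs) and 1.34 (58 against 19 UMIs), beside Ptprc levels of 2.80 and 3.43 CPM in the KO and 0.258 and 0.270 CPM in the WT graft names. In cells without a Ptprc UMI the values were 1.69 and 0.58, the second no longer past the threshold. Of the fibroblast markers given above, Col1a2 and Col3a1 were lower and Dcn higher in KO than in WT fibroblast-named cells, and their part in the Pvr result was not tested.

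In sorted lymphocytes the values past the threshold were of Pvr, at low counts, in B cells, CD4 T cells and CD8 T cells. The others were of Cd24a in regulatory T cells and of Cd47, Sirpa and Vsir in NK cells. Neutrophils, given here as well, had Cd24a past it. By the same rule 24.7% of all genes were higher in sorted B cells, 25.4% higher in CD4 T cells, 26.6% lower in CD8 T cells, 25.3% lower in regulatory T cells, 27.7% lower in NK cells and 29.8% lower in neutrophils. Pvr in sorted B cells had 24 UMIs in KO and 9 in WT cells, a log2 ratio of 1.46 (0.30 to 2.75), in CD4 T cells 0.69 (0.02 to 1.38), with a lowest value of 0.58 over the alternatives, and in CD8 T cells -1.12 (-2.24 to -0.08), from 12 and 26 UMIs, which was -0.55 by total UMIs. Cd24a in sorted B cells had a log2 ratio of 0.38 (0.26 to 0.49), under the threshold. In regulatory T cells Cd24a was lower, 31.3 against 58.3 CPM, a log2 ratio of -1.30, beside a B cell marker sum of 415 CPM in KO and 1372 CPM in WT cells. The regulatory T cell markers also differed there between KO and WT cells. Foxp3 had 364 against 91.4 CPM, Il2ra 787 against 138 CPM, Ctla4 1387 against 330 CPM and Ikzf2 2291 against 564 CPM. In NK cells Cd47 had 599 against 706 CPM, a log2 ratio of -0.60 that was -0.24 by total UMIs and then not past the threshold. Sirpa (-1.38) and Vsir (-0.84) were also lower in KO NK cells, neither past the threshold after thinning (-0.58 and -0.38), and the macrophage marker sum was 102 CPM against 1143 CPM in WT cells. The part of these markers was not tested. Cd24a in neutrophils had 551 against 653 CPM, a log2 ratio of -0.75 that was -0.24 by total UMIs.

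Lists of related genes were followed in M1 and M2 macrophages pooled, where 21.5% of all genes were higher and 23.5% lower in the sorted libraries and 17.7% and 15.2% in the tumor libraries. Of the 191 WT tumor cells in this pool, 81 were the M2 cells that were low in macrophage genes, and their part in the tumor ratios given here and for the lists that follow was not tested. Of 12 genes of the CD47-SIRPα axis, 3 were higher and 2 lower in the sorted libraries and 4 higher and 2 lower in the tumor libraries, with median log2 ratios of -0.15 and 0.16. Ranked by the sorted value among those past the threshold the same way in both preparations, Sirpb1a was the highest (0.75 and 2.29, the second with 4 UMIs in WT cells) and Thbs1 the lowest (-1.02 and -1.18), which encodes thrombospondin-1, another CD47 ligand. Other inhibitory receptors of phagocytes had 3 higher and 3 lower of 17 sorted, and 5 and 2 of 14 tumor comparisons, with medians of -0.28 and 0.28. Fcgr2b, the inhibitory Fc receptor, had 1012 against 442 CPM in the sorted libraries, a log2 ratio of 0.86, and 1.05 in the tumor libraries, and Lair1, a collagen receptor, had 0.76 and 0.91.

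Uptake receptors and bridging molecules divided evenly, 7 higher and 7 lower of 25 in the sorted and 4 and 3 of 23 in the tumor libraries, with median log2 ratios of -0.005 and -0.04. Mfge8, a bridge to dying cells, was higher in KO (1.47 and 1.55). The complement gene C1qb was lower, 1840 against 4681 CPM in the sorted libraries, a log2 ratio of -1.68, and -0.79 in the tumor libraries. Of the B7 family and its receptors, 4 were higher and 1 lower of 8 sorted and 2 and 0 of 5 tumor comparisons, with medians of 0.60 and 0.12. Pdcd1lg2, which encodes the PD-1 ligand PD-L2, had the largest ratio of the named genes, 69.7 against 3.20 CPM in the sorted libraries, a log2 ratio of 4.11, and 3.68 (2.04 to 6.01) in the tumor libraries, with 3 UMIs in WT cells. Nectins and their receptors had 2 higher and 1 lower of 8 sorted and 1 and 1 of 2 tumor comparisons, with Cadm1, an adhesion molecule, lower in both (-0.96 and -0.73). The VISTA partners had 0 of 2 past the threshold in the sorted and 1 of 3, lower, in the tumor libraries.

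**Figure D4:**
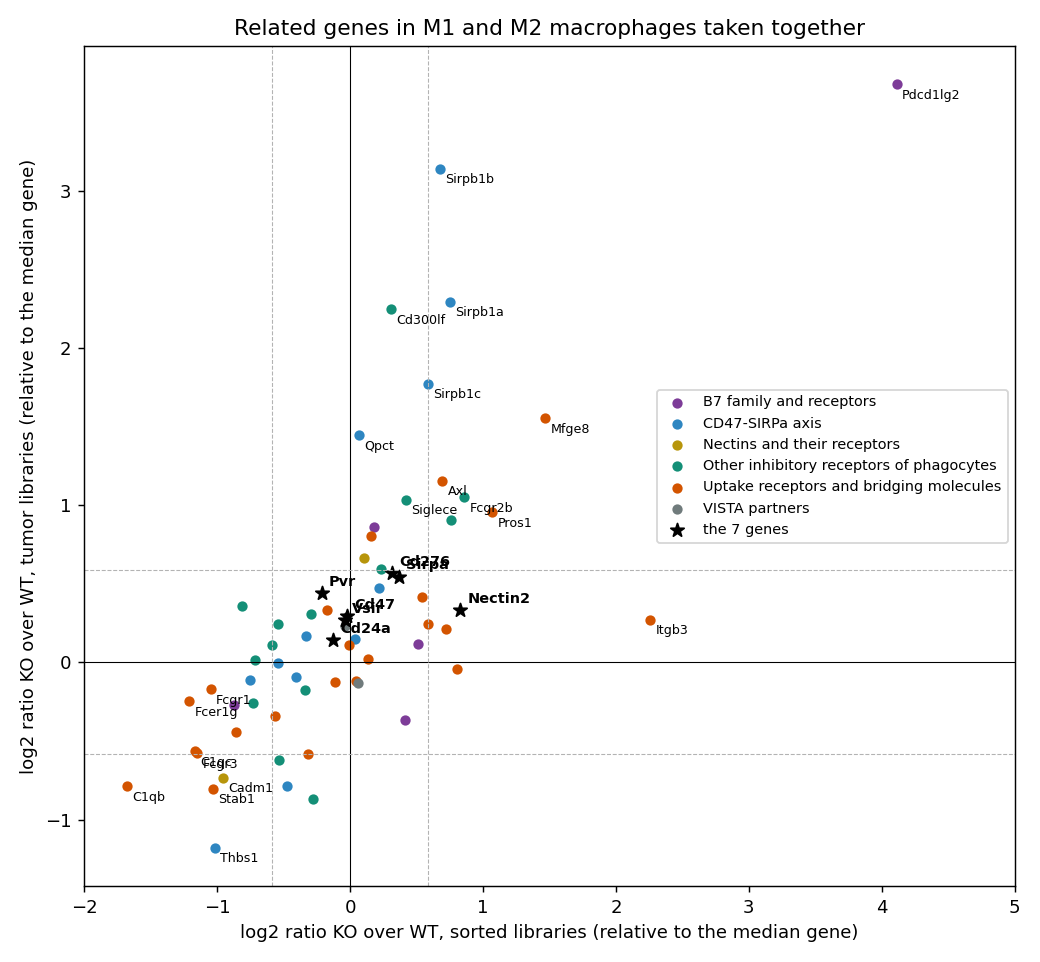
Log2 ratio KO over WT in M1 and M2 macrophages pooled, sorted libraries (horizontal) against tumor libraries (vertical), both relative to the median gene, for related genes colored by list and for the 7 genes (stars); dashed lines mark 1.5-fold. Sirpa lies at 0.37 and 0.55 and only Nectin2, at 0.83 in the sorted libraries, passes 1.5-fold among the 7 genes, while Pdcd1lg2 lies far beyond at 4.11 and 3.68.

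Over 50 sums of cell type name and library with at least 50 cells, the levels of each gene were correlated, as log2(CPM + 1), with those of 12397 genes. The points share libraries and depth, so the values are descriptive. Sirpa was most like Adgre1 (Pearson r = 0.96), the macrophage marker F4/80, followed by Ccl9 and Clec4a2. Vsir was most like the leukocyte genes Lcp2 (0.94) and Itgb2 (0.94), and Cd47 like Iqgap1 (0.89), Prkx and H2-T23. Cd276 was most like Dennd2a (0.89), Gaa and Fkbp9, and Nectin2 like Tsku (0.89), Azin2 and C1ra. Cd24a and Pvr had looser partners, Zfp608 (0.77) and Slc10a3 (0.78). Among the 7 genes the highest value was between Cd276 and Nectin2 (0.76) and the lowest between Cd47 and Cd276 (-0.55).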

How the data were processed

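The deposited matrix holds natural log values made by the authors: each UMI count was divided by its cell's total, multiplied by 10000, raised by 1 and logged. Cell type names and the total UMI count of each cell were deposited beside them. Cell Ranger 6.0.1, Seurat 4.0.5 and mm10 are named in the submitters' processing notes, without their roles, and how cells were filtered is not given in the sources used here. Inverting the formula gave whole counts within 0.01 UMI for all 60957742 nonzero values, and the recovered counts summed to the deposited total in all 20376 cells (500 to 126881 UMIs).

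The 16 samples of the labels could not be told apart by cell, so each group was 1 library, with no test. UMIs were summed per name and library. Ratios needed at least 20 UMIs over both sides and 50 cells in each library, and were taken relative to the median gene, whose log2 ratio KO over WT by total UMIs was 0.19 to 0.57. Intervals are exact at 95%: those of ratios are conditional binomial, those of shares Clopper-Pearson and those of CPM Poisson. Where a level is 0, the floor is 3 counts. Thinned shares are expected shares at 2000 UMIs per cell, without the shallower cells. Doublets were kept. The alternative without them left out cells with at least 3 markers of each of 2 lineages, 6.19% of all cells. The calculation of ratios was tested on simulated data. Python 3.11.15, numpy 2.4.6, scipy 1.17.1 and pandas 2.3.3 were used.

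The members and lists were chosen with earlier results of these data known. The genes named are the members, their receptors and partners, Cd200r1, the 3 genes most like each member with at least 500 UMIs, and from each list the highest and lowest ratio past 1.5-fold in the same direction in both preparations in macrophages. Sirpb1b, Sirpb1c and marker genes beside a result were named in addition.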

Additional observations from a re-analysis of the deposited data

Results flagged for a closer look

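For Sirpa in cells named neuroblastoma, KO and WT differed by a log2 ratio of -0.81 among sorted cells, where 26.7% of all genes were lower. Among unsorted tumor cells the log2 ratio was 0.87, where 16.4% of all genes were higher. Cells named fibroblasts gave -0.83 when sorted, where 27.6% of all genes were lower, and 1.34 in the tumor libraries, where 19.3% were higher. These values stand out because their directions were opposite between the preparations, and the difference itself was not tested. The opposition did not hold in cells without a Ptprc UMI, where the sorted values were 0.10 and 2.07 and the tumor values 1.69 and 0.58, and the sorted fibroblast-named value also turned to 0.48 with equal weight per cell and 0.27 after thinning. Sorted cells of the neuroblastoma name carried Ptprc at 1006 CPM in KO and 241 CPM in WT cells, with macrophage marker sums of 1170 and 5174 CPM, and the part of these markers was not tested. The tumor values rest on 35 against 20 UMIs and 58 against 19 UMIs.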

How the results depend on the processing

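Of the graft against leukocyte counts, 2 genes were higher under all 9 alternatives run, and 4 were lower under all but equal weight per cell and thinning, which added Cd24a and gave 5. The genotype counts moved. Shares over all genes were counted only under the main settings, by name and over all names. The counts under the alternatives, those of graft against leukocytes included, thus have no background beside them and do not describe these genes apart from the rest. For the counts without the doubted names, only the ranges of shares by name given above stand beside them. By total UMIs without centering, 20 sorted comparisons were higher in KO and 6 lower, and 18 tumor comparisons were higher and 1 lower. Under that setting the median gene was itself higher in KO, by a log2 ratio of 0.19 to 0.57. Equal weight per cell gave 16 tumor comparisons higher. Without doublets 8 sorted comparisons were lower. At least 1000 UMIs and under 10% mitochondrial UMIs gave 0 tumor comparisons lower, leukocytes with and graft cells without a Ptprc UMI gave 5 tumor comparisons higher, and leaving out shared barcodes gave 1 lower. Without the doubted names 7 sorted comparisons were higher and 8 lower, and 5 tumor comparisons were higher and 0 lower. The last 2 alternatives were chosen after seeing the data.

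Among log2 ratios past 1.5-fold, those that turned round were Sirpa in sorted neuroblastoma-named cells (0.10 by the Ptprc rule) and sorted fibroblast-named cells (0.48 with equal weight, 0.27 thinned, 2.07 by the Ptprc rule). Others were, in sorted cancer stem cell-named cells, Cd24a (0.29 with equal weight, 0.04 without doublets) and Cd47 (0.14 thinned), and Cd276 in tumor M2 macrophages (-0.09 with equal weight). Ratios under 1.5-fold, some of which also changed sign, are not listed. The cause was not tested. Of 53 log2 ratios past 1.5-fold, 43 stayed past it in the same direction by total UMIs and 45 with equal weight per cell. Of the 134 ratios compared, these settings also brought 24 and 19 others past 1.5-fold. Cd24a in sorted myeloid dendritic cells ranged from 1.53 to 1.85 and Nectin2 from 2.75 to 3.27. Pvr in tumor neuroblastoma-named cells ranged from 0.62 to 0.85.

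No paired analysis was possible because the cells carry only the library name of a group, not the sample numbers of the labels. For the same reason no replicate was left out.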

Other observations

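The same lists of related genes were counted in other cells. In sorted myeloid dendritic cells, where 17.3% of all genes were higher in KO and 17.3% lower, 6 of 8 measured genes of the B7 family and its receptors were past 1.5-fold higher and 1 lower, with a median log2 ratio of 1.48. Pdcd1lg2 had 68.1 CPM in KO and 15.4 CPM in WT cells, a log2 ratio of 1.88, and Cd80, a ligand of CD28 and CTLA-4, 31.9 and 12.6 CPM, 1.07. Cd86, which binds the same receptors, was lower, 67.7 against 103 CPM, a log2 ratio of -0.87. The largest ratios belonged to members of this list known as receptors on T cells, Ctla4 with 52.3 against 3.16 CPM, 3.79, and Cd28 with 36.8 against 5.13 CPM, 2.58. The regulatory T cell marker list, which also holds Ctla4, summed to 153 CPM in KO and 9.08 CPM in WT cells of this name, and its part in these values was not tested. These genes were chosen after their values were seen.

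Uptake receptors and bridging molecules in myeloid dendritic cells had 6 higher and 10 lower of 23 measured genes, with a median log2 ratio of -0.31, beside a macrophage marker sum of 2604 CPM in KO and 4609 CPM in WT cells. In sorted neutrophils 2 were higher and 7 lower of 11, with a median of -1.27, where 29.5% of all genes were higher and 29.8% lower. In these cells the macrophage marker sum was 308 CPM in KO and 505 CPM in WT cells, the neutrophil marker sum 34608 and 76610 CPM, and the erythroid sum 0 and 8638 CPM. The part of these markers was not tested.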
